A study of Psammomys obesus with 8 samples.

Results

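DNA methylation was read at 3941 assembled contigs that lie beside genes, within 2000 bases, in the hypothalamus of the fat sand rat *Psammomys obesus*. They were chosen from a table of 548060 contigs by their similarity to mouse: a match of at least 100 bits to a mouse autosome, at a distance of 1 to 2000 bases from the nearest mouse gene. They are set against 96400 contigs matched at the same strength inside a mouse gene, and 47485 matched contigs lay farther away. The rule itself uses none of the measured values, although no contig of the table has a summed count below 81.

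All 8 libraries came from males aged 16 weeks, 4 from the group that the labels name Standard-Low lipid and 4 from the group named Low-Low lipid, called standard-low and low-low here. The diet field of the labels reads standard lipid for standard-low libraries and low lipid for low-low libraries. The design text speaks of the fathers' diet and the series title of parental diet, and what the second word of each group name refers to is not spelled out. Methylated genomic DNA was enriched with MethylMiner, a methyl-CpG binding protein on beads, before sequencing. Library totals over the listed contigs ran between 11646180 and 12156525 reads in standard-low and between 12528388 and 13533441 in low-low, and flanking contigs took between 0.791% and 0.842% of them.

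The DNA next to a gene includes its promoter on the upstream side and its terminator on the downstream side. In mammals most CpG sites are methylated, while promoters with dense CpG sites are usually kept free of methylation, and methylation there goes with silencing. Methyl-CpG binding protein captures fragments with many methylated CpG sites best, so a captured count grows with both CpG density and methylation. In the hypothalamus the promoter of *Pomc*, which encodes the precursor of the appetite-lowering melanocortins, is a well-known site of diet-related methylation studies in rodents. Imprinted genes such as *H19* have flanking control regions methylated on 1 parental copy.

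The sequences printed here are those on which the results turn, read 5′ to 3′ as the contig stands in the deposited table, at most 300 bases each. For longer contigs the stretch richest in CpG is shown, except at *H19*, where the stretch around the marked motif is shown. Mouse positions are those of the table, and the sources used here do not name their mouse build. The first set holds contigs of *Pomc*, *Slamf9*, *Vstm2l* and *Dntt*, which had some of the lowest p-values between groups, and of *Nkx2-9*, one of the richest in CpG. Capitals mark CpG sites. Their matches lie at chr12:3954486-3954840 (plus strand), chr1:172479998-172480253 (minus), chr2:157945489-157945759 (minus), chr19:41027514-41027652 (minus) and chr12:56614570-56614908 (plus), in that order.
Pomc contig 2483852: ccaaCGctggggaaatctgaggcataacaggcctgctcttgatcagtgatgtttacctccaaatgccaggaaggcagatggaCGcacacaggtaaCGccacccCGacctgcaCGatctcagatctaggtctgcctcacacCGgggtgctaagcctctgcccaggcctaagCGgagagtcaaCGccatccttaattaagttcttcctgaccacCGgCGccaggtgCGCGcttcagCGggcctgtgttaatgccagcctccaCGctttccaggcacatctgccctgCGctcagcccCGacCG
Slamf9 contig 4112417: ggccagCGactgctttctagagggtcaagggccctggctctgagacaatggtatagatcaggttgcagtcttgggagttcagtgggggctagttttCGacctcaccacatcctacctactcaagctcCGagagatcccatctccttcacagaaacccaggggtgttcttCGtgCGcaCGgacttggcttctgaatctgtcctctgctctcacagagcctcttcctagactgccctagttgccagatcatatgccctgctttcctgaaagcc
Vstm2l contig 410654: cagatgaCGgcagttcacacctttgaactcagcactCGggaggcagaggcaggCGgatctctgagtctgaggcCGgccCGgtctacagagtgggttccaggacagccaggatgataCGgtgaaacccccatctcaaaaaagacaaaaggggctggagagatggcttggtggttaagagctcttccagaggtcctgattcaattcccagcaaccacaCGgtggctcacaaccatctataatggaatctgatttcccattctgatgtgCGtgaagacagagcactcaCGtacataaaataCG
Dntt contig 2189585: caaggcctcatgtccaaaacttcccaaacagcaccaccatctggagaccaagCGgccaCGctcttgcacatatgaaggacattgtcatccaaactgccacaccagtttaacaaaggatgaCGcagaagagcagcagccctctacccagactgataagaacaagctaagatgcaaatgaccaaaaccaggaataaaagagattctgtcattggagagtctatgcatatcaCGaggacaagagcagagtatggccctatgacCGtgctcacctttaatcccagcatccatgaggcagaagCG
Nkx2-9 contig 1846685: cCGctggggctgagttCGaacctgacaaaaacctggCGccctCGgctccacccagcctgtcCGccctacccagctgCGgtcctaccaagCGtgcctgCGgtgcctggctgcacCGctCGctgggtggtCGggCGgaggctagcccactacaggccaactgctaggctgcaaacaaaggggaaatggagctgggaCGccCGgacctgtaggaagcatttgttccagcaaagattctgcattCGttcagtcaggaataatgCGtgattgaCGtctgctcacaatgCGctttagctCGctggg

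The next set shows 2 contigs with very high capture beside AY036118, a mouse locus known to overlap ribosomal RNA sequence, again with CpG sites in capitals. Contig 2812147 matched chr17:39847777-39847903 on the minus strand and contig 500286 matched chr17:39846560-39846764 on the plus strand.
AY036118 contig 2812147: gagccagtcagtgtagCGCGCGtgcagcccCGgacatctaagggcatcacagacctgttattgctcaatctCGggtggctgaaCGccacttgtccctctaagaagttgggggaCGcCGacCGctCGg
AY036118 contig 500286: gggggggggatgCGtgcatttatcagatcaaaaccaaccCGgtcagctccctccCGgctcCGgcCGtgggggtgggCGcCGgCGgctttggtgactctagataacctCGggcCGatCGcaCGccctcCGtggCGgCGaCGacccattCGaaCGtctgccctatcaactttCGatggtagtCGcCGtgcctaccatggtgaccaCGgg

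The last sequence is part of contig 1324228 beside *H19*, matched at chr7:142579950-142580773 on the minus strand. Here the capitals mark a core of the motif of CTCF, the insulator protein that binds the imprinting control region before *H19*.
H19 contig 1324228: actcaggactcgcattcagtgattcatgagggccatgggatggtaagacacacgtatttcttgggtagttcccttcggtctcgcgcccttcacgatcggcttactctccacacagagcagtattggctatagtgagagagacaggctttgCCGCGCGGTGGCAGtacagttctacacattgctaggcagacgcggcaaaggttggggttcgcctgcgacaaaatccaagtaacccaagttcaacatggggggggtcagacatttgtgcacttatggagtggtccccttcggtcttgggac
The motif searched was CCGCNNGGNGGCAG on both strands, with N for any base, and no other motif was searched. It stood in 2 flanking contigs, those of *H19* and Gm11531 (0.0508%), against 36 inside contigs (0.0373%) and 103 contigs of the whole table (0.0188%). A match of letters is no evidence of binding.

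Flanking contigs had a more mixed set of neighbours than contigs inside genes. Genes with an approved-style name were nearest to 60.01% of flanking contigs, against 90.1% of inside contigs. Predicted or clone-named genes were nearest to 30.04%, against 9.29% inside, and small RNA genes to 8.25%, against 0.199% inside. There were 3123 nearest genes, of which 2613 had 1 flanking contig and 510 had several. Of their symbols, 1539 are in the RefSeq gene table of the sand rat, all as protein coding.

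Only part of a typical flanking contig resembled mouse. The mouse match covered a median of 50.5% of a flanking contig, against 78.3% of an inside contig, at median lengths of 544 and 528 bases. Repeat-like contigs, in which at least 10% of the 16-base words occur 10 times or more over the table, made up 28.4% of the flanking set, against 12.2% inside. In addition 722 flanking contigs (18.3%) shared a mouse position with another, by at least 50% of the shorter match, in 258 stacks. The tallest, beside *Ethe1*, a mitochondrial sulfur dioxygenase gene, piled 20 contigs on 124 bases. Whether each of them lies beside that gene in the sand rat was not tested.

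Capture was lower beside genes than inside them. Capture per kb is the summed CPM (counts scaled to the library total) of a class divided by its summed length. It was 3.35, 3.22, 3.43 and 3.36 CPM per kb at flanking contigs in standard-low libraries 1 to 4, against 3.71, 3.52, 3.85 and 3.64 at inside contigs of the same libraries. In low-low libraries 1 to 4 flanking contigs had 3.32, 3.30, 3.38 and 3.31 CPM per kb and inside contigs 3.72, 3.77, 3.79 and 3.75. Every library had the lower value at flanking contigs. All 8 libraries counted the same contigs, so sign-flip p-values over libraries measure how repeatable a difference is, not the spread over contigs. The log2 ratio of flanking to inside averaged -0.16 ± 0.03 (SD over 8 libraries), a ratio of 0.897, with a two-sided exact sign-flip permutation p of 0.00781, the smallest that 8 libraries can give (Benjamini-Hochberg adjusted p = 0.0109 over 7 ratios).

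CpG content differed along with capture. The median was 2.14 CpG per 100 bases at flanking contigs and 2.32 at inside contigs, and 3.48% of flanking contigs reached 4 or more, against 6.41% inside. Within bins of CpG content the flanking-to-inside ratio of capture was 0.974 under 1.5 CpG per 100 bases, 0.946 between 1.5 and 2.5, and 0.889 between 2.5 and 4. The bins are wide, and CpG content was not matched within them. In these bins the adjusted exact sign-flip permutation p was 0.0273, 0.0109 and 0.0109. At 4 or more the ratio was 1.08 (adjusted exact p = 0.0313), above 1 in 7 of the 8 libraries. That value rested on the AY036118 contigs, and without them it was 0.867 (adjusted exact p = 0.0109).

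Within the flank, capture did not fall step by step with distance. Up to 500, between 500 and 1000, between 1000 and 1500 and between 1500 and 2000 bases it averaged 3.37, 3.32, 3.29 and 3.38 CPM per kb in standard-low libraries (SD between 0.0799 and 0.0928). In low-low libraries the averages were 3.35, 3.30, 3.28 and 3.38 CPM per kb (SD between 0.031 and 0.050). Within libraries the steps were small and mostly of 1 sign. The same contigs were counted in every library, so the p-values of the steps do not measure the spread over contigs. The second bin lay below the first in 8 of 8 libraries (ratio 0.985, two-sided exact sign-flip permutation p = 0.00781, adjusted 0.0117 over 3 steps). The third lay below the second in 7 of 8 (ratio 0.992, adjusted exact p = 0.0313), and the fourth lay above the third in 8 of 8 (ratio 1.03, adjusted exact p = 0.0117). Contigs beside AY036118, with up to 108 CPM per kb, lie in each of these bins and were not left out. Their part in these small steps was not tested. Contigs between 2000 and 5000 bases away had 3.36 CPM per kb in standard-low and 3.35 in low-low, and those beyond 20000 bases had 3.07 in standard-low and 3.003 in low-low. CpG-rich contigs (4 or more per 100 bases) made up 4.40%, 2.77%, 2.96% and 3.75% of the 4 flanking bins and 1.97% of the next. These shares were not tested.

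**Figure D1:**
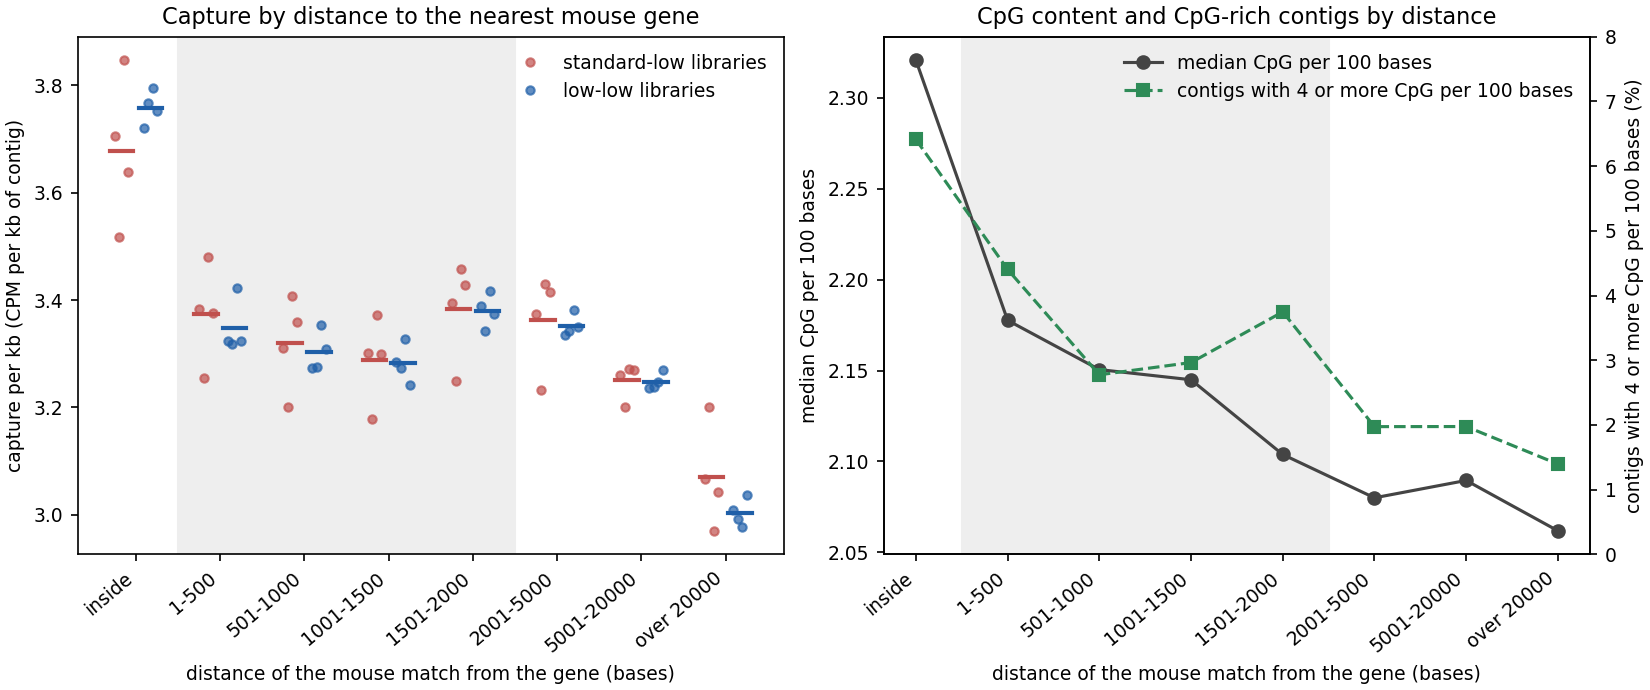
Left, capture per kb (CPM per kb of contig) in each library by distance of the mouse match from the nearest gene, with standard-low points left of low-low points and bars at group means. Right, median CpG per 100 bases (left axis) and the share of contigs with 4 or more (right axis). The shaded bins are the flank, where standard-low means lie between 3.29 and 3.38 and low-low means between 3.28 and 3.38, below the inside means of 3.68 in standard-low and 3.76 in low-low.

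Summed over all flanking contigs, capture was close in both groups of offspring. The sum was 8223, 7912, 8424 and 8266 CPM in standard-low libraries 1 to 4 and 8150, 8113, 8303 and 8135 CPM in low-low libraries 1 to 4. The groups overlapped, with the highest and the lowest value both in standard-low. The means were 8206 ± 214 CPM in standard-low and 8175 ± 86.7 CPM in low-low (SD, n = 4 each; two-sided exact permutation p = 0.771, 0.964 after Benjamini-Hochberg adjustment over 10 library measures). In each of the 4 distance bins the ratio of means lay between 1.001 and 1.008, with an adjusted exact p of at least 0.964. In bulk tissue a shift in cell types and a change within cells cannot be told apart.

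Relative to the inside of genes, flanking capture was slightly higher in standard-low. The ratio of flanking to inside capture was 0.903, 0.915, 0.891 and 0.925 in standard-low libraries 1 to 4 and 0.892, 0.877, 0.891 and 0.882 in low-low libraries 1 to 4. Only standard-low 3 lay among the low-low values. The means were 0.909 ± 0.0146 in standard-low and 0.885 ± 0.00711 in low-low (SD, n = 4 each), a difference that did not pass (exact permutation p = 0.0571, adjusted 0.286). Libraries also differed in how strongly capture depended on CpG content. Over the whole table, capture per kb at contigs with 4 or more CpG per 100 bases was 1.84, 1.61, 2.28 and 1.59 times that at contigs under 1.5 in standard-low libraries 1 to 4, and 1.88, 2.33, 2.27 and 2.28 times in low-low libraries 1 to 4 (exact permutation p = 0.114). The part of this in the flanking values was not tested.

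The median group difference at flanking contigs changed sign with CpG content, but the bins did not differ between groups after adjustment. The median log2 fold change, standard-low over low-low, was 0.09 under 1.5 CpG per 100 bases, 0.04 between 1.5 and 2.5, -0.05 between 2.5 and 4 and -0.12 at 4 or more. Inside contigs had the same order, at 0.11, 0.03, -0.08 and -0.20, and so had all contigs. For the flanking contigs with 1.5 to 2.5 CpG per 100 bases the summed CPM was 4669, 4611, 4648 and 4757 in standard-low libraries 1 to 4, against 4604, 4467, 4569 and 4518 in low-low libraries 1 to 4. All 4 standard-low values were higher, by a ratio of means of 1.03 (exact permutation p = 0.0286, the smallest that 4 against 4 can give, 0.286 after adjustment). Under 1.5, between 2.5 and 4 and at 4 or more the groups overlapped in summed CPM. There the exact permutation p was 0.200, 0.343 and 0.314 (adjusted 0.667, 0.686 and 0.686). At 4 or more the highest library was standard-low 3, with 431 CPM.

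**Figure D2:**
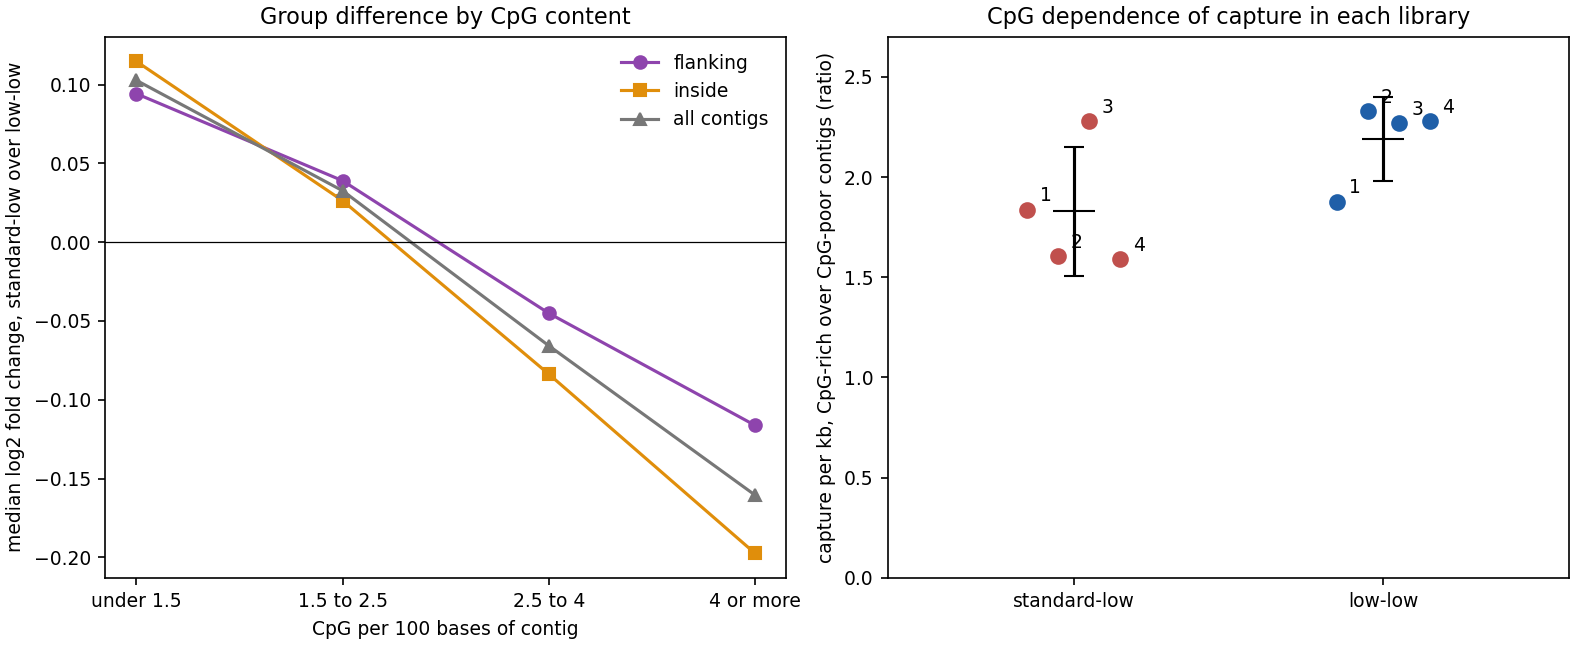
Left, median log2 fold change (standard-low over low-low) by CpG per 100 bases of contig for flanking contigs, inside contigs and all contigs. Right, ratio of capture per kb at contigs with 4 or more CpG per 100 bases to that under 1.5 in each library (number beside the point), with mean and SD. Flanking medians run between 0.09 and -0.12, and standard-low 1, 2 and 4 lie below low-low 1 to 4 on the right.

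No single flanking contig passed the test between groups. In edgeR's quasi-likelihood test the number of flanking contigs with an adjusted p under 0.05 was 0 of 3941, while 0.0268% of all contigs passed. An unadjusted p under 0.05 was found at 226 of them, which is 5.73% beside 5.68% of all contigs. Of these, 114 were higher in standard-low (2.89% beside 2.93%) and 112 were lower (2.84% beside 2.76%). DESeq2 also passed 0, beside 0.00584% of all contigs, with 86 at an unadjusted p under 0.05 (2.18% beside 2.28%). With limma voom the number was again 0, beside 0.00912%, with 235 at an unadjusted p under 0.05 (5.96% beside 5.56%). The groups did not overlap at 133 flanking contigs (3.37%), beside 3.24% of all contigs. By distance bin the share at an unadjusted p under 0.05 was 4.599%, 5.45%, 6.23% and 6.75%, nearest bin first. This rise did not go on farther out. The share was 4.52% at 2001 to 5000 bases, 5.03% at 5001 to 20000 and 5.38% beyond, against 6.14% inside genes. The differences between bins were not tested. The shares over all flanking contigs are near the background, and the contigs described next are those with the lowest p among the 133, 1 per gene.

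*Dntt*, which encodes the enzyme that adds untemplated nucleotides at antigen-receptor joints, had the lowest p among contigs higher in standard-low whose groups did not overlap. The contig lay 1623 bases away and had 1.97, 2.02, 2.74 and 1.77 CPM in standard-low libraries 1 to 4, against 1.07, 1.34, 0.803 and 0.998 CPM in low-low libraries 1 to 4. All standard-low values were higher, and the means were 2.13 ± 0.420 CPM in standard-low and 1.05 ± 0.221 CPM in low-low (log2 fold change 1.004 ± 0.27 SE, edgeR unadjusted p = 3.43e-04, adjusted p = 0.404). Only 27.8% of this contig matched mouse, and 16.7% of its words were repeat-like. The contig of *Syt15*, a synaptotagmin gene of membrane traffic, had 1.37, 1.27, 1.24 and 1.27 CPM in standard-low libraries 1 to 4, against 0.840, 0.594, 0.562 and 0.307 CPM in low-low libraries 1 to 4. Its standard-low values were tightly grouped above all low-low values (log2 1.14 ± 0.35, edgeR adjusted p = 0.646). The other 4 contigs higher in standard-low lay beside 5430417L22Rik, *Loxhd1* (a hair-cell protein of hearing), Gm9769 and *Sccpdh*, a saccharopine dehydrogenase-like gene. Their log2 fold changes ran between 0.74 and 1.17, with adjusted p between 0.646 and 0.756.

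Among such contigs lower in standard-low, *Vstm2l*, which encodes an immunoglobulin-domain protein, had the lowest p. It lay 770 bases away and had 1.03, 0.675, 1.24 and 0.592 CPM in standard-low libraries 1 to 4, against 1.45, 2.30, 1.77 and 2.30 CPM in low-low libraries 1 to 4. All standard-low values were lower (means of 0.884 ± 0.305 CPM in standard-low and 1.96 ± 0.421 CPM in low-low, log2 -1.14 ± 0.29, edgeR unadjusted p = 1.84e-04, adjusted p = 0.289). The mouse match covered 42.9% of this contig, and 21.4% of its words were repeat-like. The contig of *Maf1*, which encodes a repressor of RNA polymerase III, was the longest of the 6 and matched mouse over its whole length. It had 9.16, 4.55, 8.70 and 6.93 CPM in standard-low libraries 1 to 4, against 9.70, 10.7, 11.2 and 10.2 CPM in low-low libraries 1 to 4. The groups came close without overlapping (log2 -0.51 ± 0.15, edgeR adjusted p = 0.584). This contig had 4.91 CpG per 100 bases. Flanking contigs with 4 or more had a median log2 fold change of -0.12, and the part of this in the *Maf1* value was not tested.

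*Slamf9*, a gene of the SLAM family of immune-cell receptors, had 1.11, 0.337, 0.663 and 0.423 CPM in standard-low libraries 1 to 4, against 1.604, 1.49, 1.28 and 1.23 CPM in low-low libraries 1 to 4. Every standard-low value was lower (log2 -1.14 ± 0.34, edgeR adjusted p = 0.622). *Kif23*, a kinesin gene of cell division, had 0.770, 0.590, 0.8288 and 0.423 CPM in standard-low libraries 1 to 4, against 1.22, 1.56, 1.61 and 1.38 CPM in low-low libraries 1 to 4. Again the groups were apart (log2 -1.13 ± 0.33, edgeR adjusted p = 0.569), and 42.5% of the words of this contig were repeat-like. A contig beside the gene labelled MUC2, the name of a gel-forming mucin, had a log2 fold change of -0.73 ± 0.21 (edgeR adjusted p = 0.497).

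**Figure D3:**
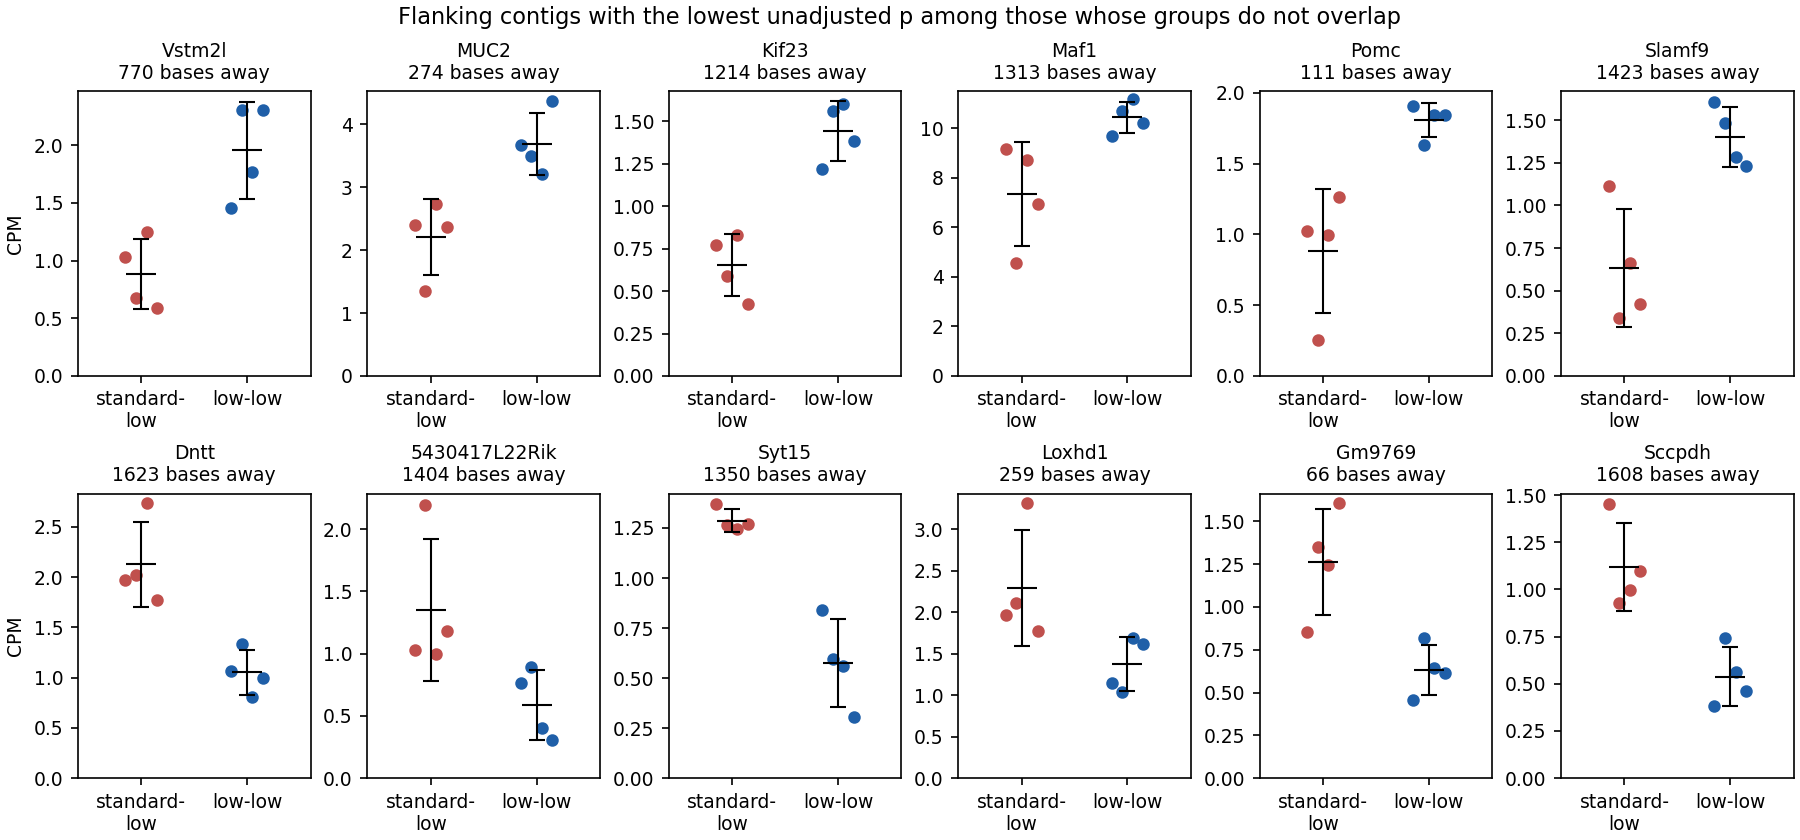
CPM in each library for the 6 lower (upper row) and 6 higher (lower row) flanking contigs with the lowest unadjusted p among those whose groups do not overlap, standard-low left of low-low, with mean and SD and the distance from the gene. The groups are apart in each panel by the rule that chose the contigs, and no contig has an adjusted p below 0.289.

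*Pomc* stood among these 12 contigs by that rule. Its contig of 354 bases ended 111 bases short of the mouse gene, on the side of lower coordinates. In mouse *Pomc* is read towards higher coordinates, so this side is the promoter side. The contig matched mouse over its whole length, contained 18 CpG sites (5.08 per 100 bases) and held no repeat-like words. It had 1.03, 0.253, 0.995 and 1.27 CPM in standard-low libraries 1 to 4, against 1.91, 1.63, 1.85 and 1.84 CPM in low-low libraries 1 to 4. All standard-low values were lower, with standard-low 2 the lowest, and the means were 0.886 ± 0.439 CPM in standard-low and 1.81 ± 0.120 CPM in low-low. The log2 fold change was -1.02 ± 0.30 (edgeR unadjusted p = 0.00107, adjusted p = 0.596), and without standard-low 2 it was -0.72. Standard-low 2 held 3 reads of this contig and was the library least like the rest. Its correlations with the other libraries on the log scale lay between 0.720 and 0.761. Pairs without it lay between 0.792 and 0.842. As a class, flanking contigs with 4 or more CpG per 100 bases had a median log2 fold change of -0.12 (-0.16 over all such contigs), and 11.7% of them had an unadjusted p under 0.05, beside 11.2% of all such contigs. Their capture, too, was lowest in standard-low 2, at 4.41 CPM per kb, and the part of this in the *Pomc* value was not tested. A contig inside *Pomc* had 2.99, 1.52, 3.56 and 2.54 CPM in standard-low libraries 1 to 4, against 3.21, 2.90, 3.29 and 3.76 CPM in low-low libraries 1 to 4. There the groups overlapped, and standard-low 2 was again the lowest library. The difference between flank and inside in the same gene was -0.73 ± 0.35 on the log2 scale (interaction test in edgeR, unadjusted p = 0.0420, adjusted p = 0.811). That test reuses the counts of the flanking contig, which was picked for its low p, and is no separate evidence.

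That interaction, the group difference at the flank minus the group difference inside the same gene, was fitted for the 2080 genes with both kinds of contig. None passed an adjusted p of 0.05, and 127 (6.11%) had an unadjusted p under 0.05, 81 of them positive. The 6 genes with the lowest p were *Dntt*, Gm5705, MUC2, *Vstm2l*, Gm12182 and *Man2b2*, a lysosomal mannosidase gene, each at an adjusted p of 0.301. At *Vstm2l* the inside contigs summed to 4.77 ± 0.909 CPM in standard-low and 4.68 ± 0.295 CPM in low-low, close in both groups, and the interaction was -1.16 ± 0.32. At *Dntt* the inside sums were 16.7 ± 2.0 CPM in standard-low and 16.9 ± 0.915 CPM in low-low, and the interaction was 1.01 ± 0.26. Both *Vstm2l* and *Dntt* have 1 flanking contig, the one described above. MUC2 has 2 flanking contigs, and 1 of them is the contig described above. The interaction reuses these counts, so the place of *Vstm2l*, *Dntt* and MUC2 among the lowest p here is no separate evidence. At Gm5705 the means differed in opposite directions. The flank had 6.24 ± 1.06 CPM in standard-low and 5.06 ± 0.475 CPM in low-low, and the inside contig had 0.781 ± 0.226 CPM in standard-low and 1.61 ± 0.701 CPM in low-low.

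Few genes of hypothalamic pathways had a flanking contig at all. Of 273 genes in 8 pathway lists, 27 had 33 flanking contigs, 17 of them higher in standard-low and 16 lower. Only that of *Pomc* had an unadjusted p under 0.05 with edgeR, where 5.68% of all contigs had one. After adjustment 0 passed with edgeR (0.0268% of all contigs), DESeq2 or limma voom. The median log2 fold change over the 33 was 0.00, beside 0.01 over all flanking contigs. Of the 8 genes of energy balance, insulin action and methylation named for a separate look, *Pomc* and *Dnmt3a* had flanking contigs, and *Npy*, *Agrp*, *Lepr*, *Mc4r*, *Insr* and *Igf2* had none.

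Among appetite and energy balance genes, *Fto*, *Glp1r*, *Pomc* and *Socs3* had 6 contigs, 2 higher and 4 lower. The 2 contigs of *Fto*, a demethylase gene tied to body weight, had log2 fold changes of 0.17 ± 0.28 and -0.01 ± 0.16. *Socs3*, an inhibitor of leptin signalling, had 0.03 ± 0.28 and -0.29 ± 0.30, and *Glp1r*, the receptor of an incretin hormone, -0.09 ± 0.29. Insulin and IGF signalling genes had 6 contigs, 2 higher and 4 lower. *Irs2*, an adaptor of the insulin receptor, had a CpG-rich contig 1678 bases away with 1.37 ± 0.0573 CPM in standard-low and 1.78 ± 0.307 CPM in low-low, whose groups did not overlap (log2 -0.38 ± 0.26, edgeR unadjusted p = 0.151). Its contig at 35 bases had -0.02 ± 0.23. The contig of *Pdpk1*, a kinase upstream of Akt, had 0.47 ± 0.32.

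Lipid metabolism genes had 3 contigs, of which *Acadl*, an enzyme of fatty acid oxidation, had 1.22 ± 0.343 CPM in standard-low and 0.8287 ± 0.0999 CPM in low-low (log2 0.56 ± 0.33, edgeR adjusted p = 0.898). *Lpl*, the lipase of circulating triglycerides, and *Scd1*, a fatty acid desaturase, each had -0.04 (SE 0.18 and 0.21). Neurotransmitter receptor genes had 4 contigs, 3 higher and 1 lower. *Grin2b*, an NMDA receptor subunit, had 1.28, 1.603, 1.33 and 1.52 CPM in standard-low libraries 1 to 4, against 1.15, 0.966, 1.04 and 1.08 CPM in low-low libraries 1 to 4. These groups did not overlap, yet the test gave an edgeR adjusted p of 0.916 (log2 0.44 ± 0.29). The remaining lists had 2 contigs for methylation machinery (*Dnmt3a*, a methyltransferase, at 0.18 ± 0.26, and *Mbd4*, a methyl-CpG binding repair enzyme, at 0.00 ± 0.27), 2 for developmental transcription factors (of which *Fezf1* had 0.11 ± 0.29) and 1 for the stress axis (*Crh*, the stress hormone gene, at 0.24 ± 0.35).

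Imprinted genes had the most, 10 contigs of 7 genes, 5 higher and 5 lower, and none at an unadjusted p under 0.05, beside 5.68% of all contigs. *H19*, an imprinted non-coding RNA, had a contig at 125 bases with 1.12 ± 0.210 CPM in standard-low and 1.15 ± 0.201 CPM in low-low, and the contig with the CTCF core, at 1807 bases, with 2.17 ± 0.838 CPM in standard-low and 2.32 ± 0.448 CPM in low-low. Both lay on the side of higher coordinates, which in mouse is upstream of *H19*, and the groups overlapped (log2 -0.04 ± 0.31 and -0.10 ± 0.23). The contigs of *Meg3*, an imprinted non-coding RNA, *Peg3*, a paternally expressed zinc finger gene, and *Phlda2*, a maternally expressed growth regulator, had log2 fold changes of 0.24 ± 0.30, 0.13 ± 0.35 and -0.04 ± 0.25. *Kcnq1*, a potassium channel gene in an imprinted cluster, had 0.51 ± 0.31, and the 3 contigs of *Kcnk9*, another channel gene, lay between -0.10 and 0.07.

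Markers of cell types gave little to read, since 79 marker genes in 8 lists had only 8 flanking contigs. The neuronal marker *Rbfox3* had a log2 fold change of -0.17 ± 0.24, the astrocyte markers *Aqp4* and *S100b* -0.25 ± 0.27 and 0.11 ± 0.29, the endothelial *Cldn5* 0.06 ± 0.24 and the tanycyte-related *Frzb* 0.24 ± 0.21. The pituitary genes *Pitx1* and *Gh* had -0.46 ± 0.26 and 0.07 ± 0.20, and the T-cell gene *Cd3e* had -0.54 ± 0.35. None of the 8 had an unadjusted p under 0.05, beside 5.68% of all contigs, and oligodendrocyte and microglial markers had no flanking contig. Captured DNA does not report expression, so the tissue label could not be checked in this way.

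**Figure D4:**
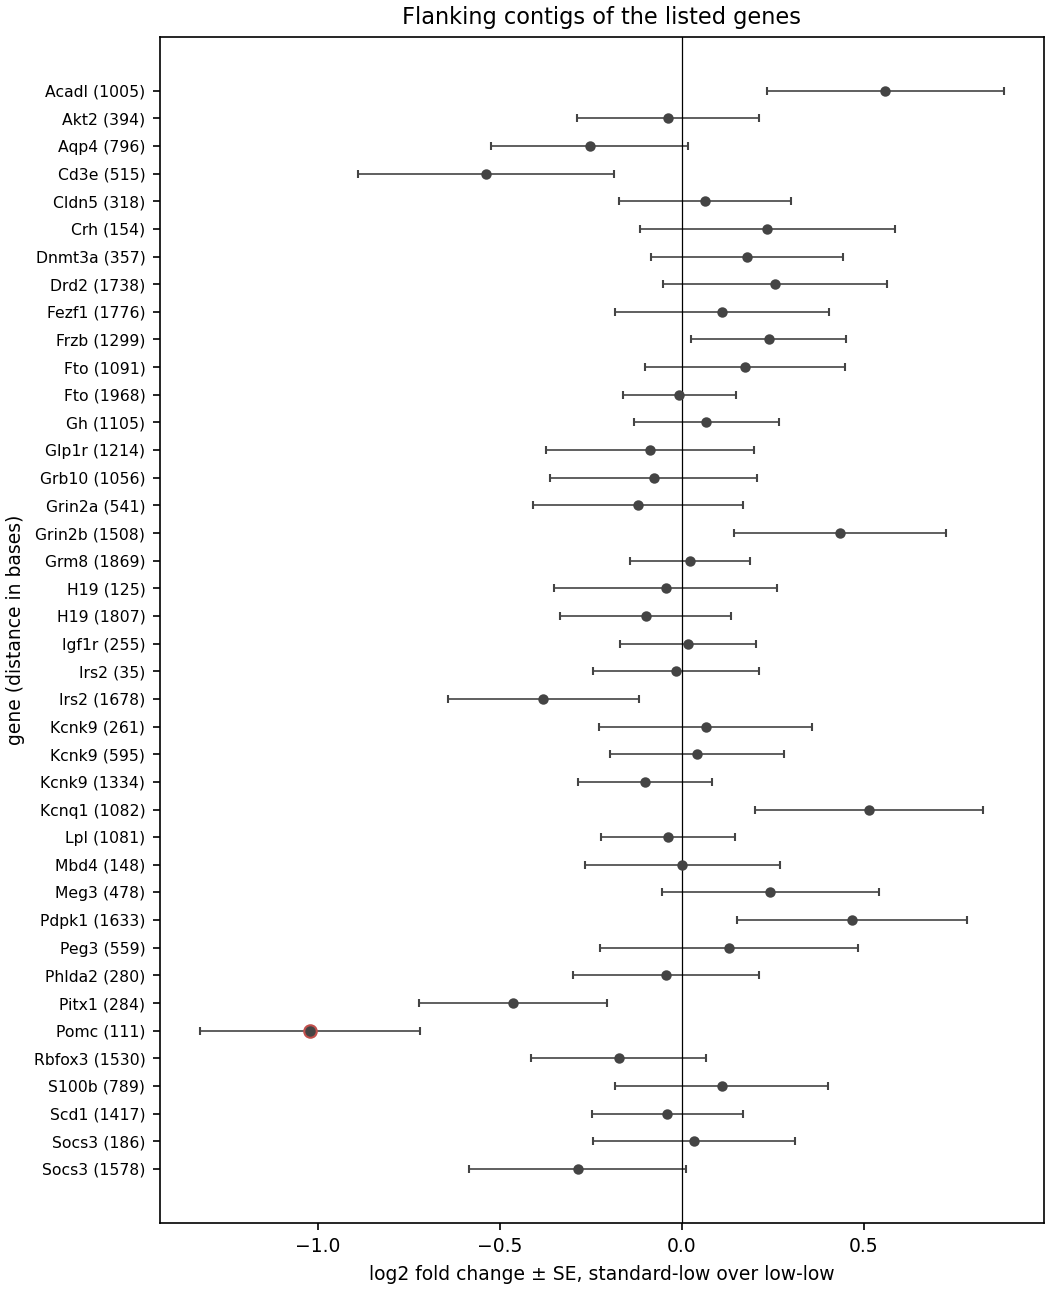
Log2 fold change with SE, standard-low over low-low, for flanking contigs of genes in the pathway and marker lists, with the distance from the gene in bases in brackets. The contig of *Pomc* at -1.02 is the only one shown at an unadjusted p under 0.05 (red point), and none shown passes after adjustment.

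Most flanking contigs had similar capture, with a median of 3.13 CPM per kb and quartiles at 2.43 and 4.001, and the highest values stood beside AY036118. Its 14 contigs, at chr17:39846333-39847987 in the mouse, had between 2.47 and 108 CPM per kb and between 2.05 and 10.6 CpG per 100 bases. Their summed CPM was 119, 120, 88.8 and 89.7 in standard-low libraries 1 to 4 and 113, 99.1, 99.2 and 49.2 in low-low libraries 1 to 4. The low-low 4 library was the lowest of the 8 at 11 of the 14 contigs. The means were 104 ± 17.3 CPM in standard-low and 90.0 ± 27.9 CPM in low-low (SD, n = 4 each; exact permutation p = 0.571), and without low-low 4 the low-low mean was 104. Ribosomal DNA is present in many copies, and copy number and methylation cannot be told apart in captured counts.

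**Figure D5:**
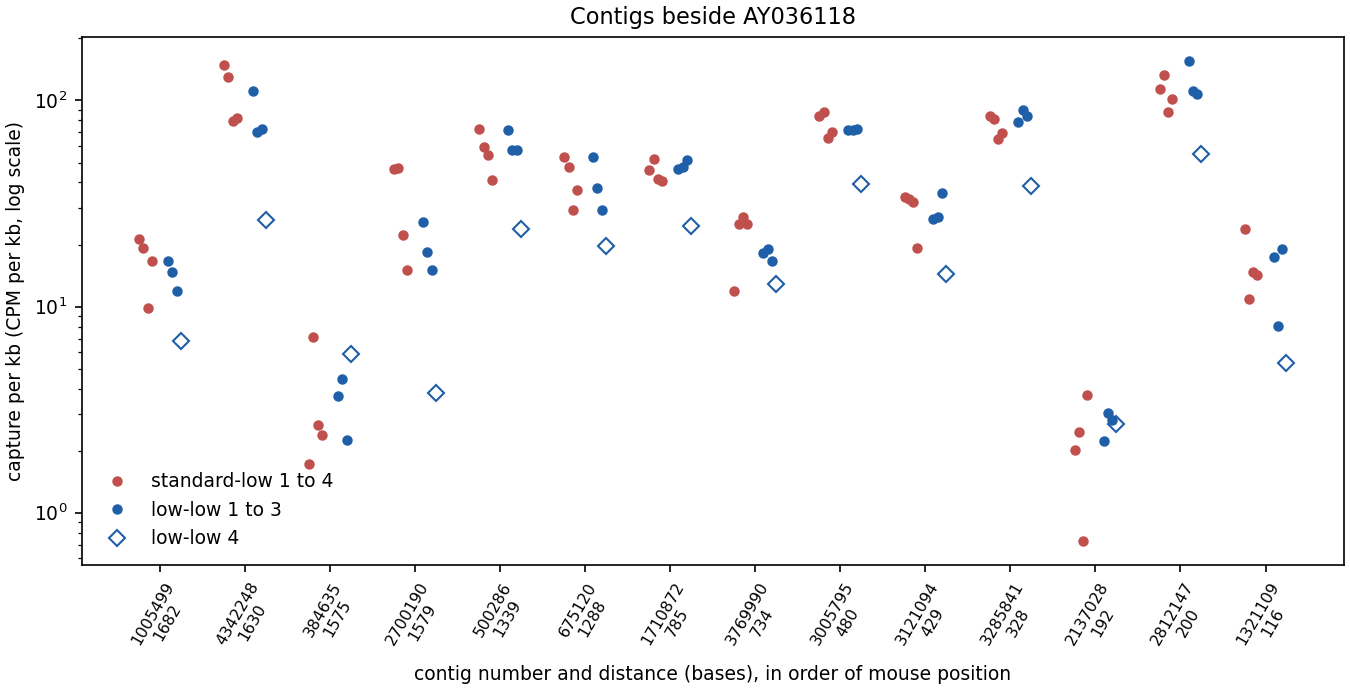
Capture per kb (CPM per kb, log scale) in each library at the 14 contigs beside AY036118 in order of mouse position, with standard-low points left of low-low points and low-low 4 as an open diamond. Contigs reach 108 CPM per kb, and low-low 4 is the lowest library at 11 of the 14.

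Beyond AY036118, the contigs of 200 bases or more with the highest capture were those of Vmn1r-ps58, a vomeronasal receptor pseudogene (18.0 CPM per kb), 5S_rRNA (15.9) and the immunoglobulin gene *Ighg2b* (10.1). At Vmn1r-ps58 the CPM averaged 9.23 ± 0.828 in standard-low and 9.21 ± 1.15 in low-low. At 5S_rRNA it averaged 4.68 ± 0.398 in standard-low and 5.97 ± 0.808 in low-low (log2 -0.35 ± 0.16, edgeR adjusted p = 0.857). The most CpG-rich contigs outside AY036118 lay beside 1700067K01Rik (6.80 CpG per 100 bases), *Nkx2-9*, a homeobox gene of the ventral neural tube (6.35), and *Tril*, a toll-like receptor partner gene (6.29). Only that of *Nkx2-9* had groups that did not overlap, with 0.685, 0.759, 1.08 and 0.930 CPM in standard-low libraries 1 to 4, against 1.22, 1.56, 1.20 and 1.61 CPM in low-low libraries 1 to 4. Its log2 fold change was -0.69 ± 0.31 (edgeR unadjusted p = 0.0281, adjusted p = 0.853). Flanking contigs with 4 or more CpG per 100 bases had a median of -0.12, and the part of this in the *Nkx2-9* value was not tested.

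The names with most flanking contigs were small RNA genes with many copies. SNORA17, a small nucleolar RNA, had 111 contigs at 81 mouse positions, and U6, a spliceosomal RNA, had 80 at 65. Next came 7SK, a regulator of transcription elongation, with 30, U1, another spliceosomal RNA, with 22, and *Ethe1* and Gm12686 with 20 each. The summed CPM of SNORA17 contigs was 194, 192, 188 and 190 in standard-low libraries 1 to 4, against 197, 186, 191 and 183 in low-low libraries 1 to 4. That of U6 contigs was 162, 162, 176 and 172 in standard-low libraries 1 to 4, against 170, 175, 164 and 172 in low-low libraries 1 to 4. For both names the groups overlapped, and the median log2 fold changes were 0.04 and 0.03. These names rest on similarity to mouse, and copies of such genes cannot be told apart with certainty.

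Contigs near the limit of the distance rule are given as values only. Just inside, at 1999 bases, the contigs of *Zdhhc20*, *Pgp* and Olfr524 had log2 fold changes of -0.52, 0.28 and -0.04. Just outside, at 2001 to 2003 bases, those of *Rheb*, *Aspg* and CT025592.2 had -0.11, -0.20 and -0.22.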

How the data were processed

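The deposited table holds whole-number read counts per assembled contig for 8 MethylMiner libraries, and the counts were used as the authors deposited them, with no input libraries. Per the submitters' processing notes, FastQC served for quality control and BWA for alignment. No version, assembler or mouse build is named in the sources used here. The mouse position, bit score, nearest gene and distance come from the contig names in the table. Column names are separated by spaces and values by tabs, so columns were matched in header order. The lowest summed count over 8 libraries was 81, so contigs below some minimum are not analysed here. The labels do not say that replicates came from separate animals or litters, and the p-values reflect the spread of these 4 samples a group, part of which may be technical.

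All 548060 contigs were fitted with edgeR 4.0.16 in R 4.3.3 (TMM factors, quasi-likelihood test, standard-low over low-low), with Benjamini-Hochberg adjustment over all of them at 0.05. CPM of single contigs, genes and named groups used the library total times the TMM factor, and summed CPM and capture per kb of a class used the library total. Library measures were compared with exact permutation tests over 70 relabellings, and flank against inside and neighbouring distance bins with exact sign flips over 8 libraries (scipy 1.17.1). The interaction fit summed counts per gene at the flank and inside, with library as block. DESeq2 1.42.0, limma voom 3.58.1, other scalings, a filter at a mean of 20 counts, other bit and distance limits, leaving out each library and a replicate block were alternatives. The fits were checked on simulated counts.

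The contigs, the gene and marker lists and the tests were chosen with earlier results of these data known. Named contigs were the 6 higher and 6 lower of lowest p whose groups did not overlap, the 6 of highest capture per kb and the 6 richest in CpG among those of 200 bases or more, those of 8 fixed genes, the one of lowest p in each list, the 5 genes with most contigs (a tie added another) and the 6 genes of lowest interaction p. Repeats were judged from 16-base words that occur 10 times or more in the table. A listed contig and a sequence are not reported here.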

Additional observations from a re-analysis of the deposited data

Results flagged for a closer look

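In groups of 4 libraries, a value was picked out where its gap to the nearest other was above Dixon's critical value. Chance picks out about 5% of groups, and 5 of 98 groups examined were picked out. The contig beside 5430417L22Rik had 2.19 CPM in standard-low 2, while the other standard-low libraries lay between 0.995 and 1.18. The AY036118 contig 3005795 had 11.9 CPM in low-low 4, while the other low-low libraries lay between 21.8 and 22.0. The contig beside *Tril* had 1.11 CPM in standard-low 1, while the others lay between 1.43 and 1.49. The summed CPM of flanking contigs at 1 to 500 bases was 2149 in low-low 3, while the other low-low libraries lay between 2083 and 2087. The ratio of capture per kb at CpG-rich to CpG-poor contigs over the whole table was 1.88 in low-low 1, while the others lay between 2.27 and 2.33.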

How the results depend on the processing

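The count of 0 flanking contigs past an adjusted p of 0.05 became 1 when matches of 50 bits or more were admitted, by a contig 1966 bases from *Tyrp1*, an enzyme of pigment synthesis (5.82, 1.69, 4.39 and 3.55 CPM in standard-low libraries 1 to 4 against 2.37, 0.817, 1.36 and 1.92 in low-low libraries 1 to 4; edgeR log2 1.25, adjusted p = 0.00980). With 1 library left out the count ran between 0 and 2, with 1 without standard-low 4 and 2 without low-low 1, all beside AY036118 (contigs 2700190 and 4342248, edgeR adjusted p between 0.0105 and 0.0467). Replicate numbers were not treated as pairs in the main fit. Same-number correlations lay between 0.000590 and 0.0410 over flanking contigs and between -0.00913 and 0.0312 over all contigs, under a set limit of 0.1. In both sets numbers 1, 2 and 3 nevertheless correlated best with their own and 4 with 1. A replicate block gave 2 calls, the same AY036118 contigs.

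DESeq2 gave 2.18% of flanking contigs at an unadjusted p under 0.05, beside 2.28% of all contigs. With 1 library left out, edgeR gave between 4.64% and 8.20%. The ratio of summed CPM fell below 1, to 0.986, for contigs with a mean of 20 or more counts (exact permutation p = 0.600), and ran between 0.995 and 1.02 with 1 library left out. The standard-low to low-low ratio of flanking to inside capture reached an exact permutation p of 0.0286 at 1 to 1000 bases (ratio 1.03), at 200 bits or more (1.03), at a mean of 20 or more counts (1.03) and for contigs alone at their mouse position (1.02), the last chosen after seeing the data. These p-values are unadjusted. The exact permutation p was 0.0571 at 1 to 5000 bases and with 1 contig per gene, 0.0857 at 50 bits or more and 0.125 with a replicate block. With 1 library left out this ratio ran between 1.02 and 1.03 (exact permutation p between 0.0571, the smallest that 4 against 3 can give, and 0.114). The log2 ratio of flanking to inside capture lay between -0.27 and -0.12 under the other alternatives, and no interaction passed under any run. Among all 34 named contigs the sign differed in 17 of 457, and none passed. Low counts, with a median of 19.4 reads per library at a flanking contig, limit what a single contig can show.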
